A study of Mus musculus with 8 samples.

Results

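The genes described here are Xrcc4 and the other core genes that rejoin broken DNA ends, as read on microarrays of hair follicle bulge cells from mice with a conditional knockout of G9a (G9a cKO) and from G9a WT mice. Of 10 listed genes of classical and alternative end joining, 9 had a named probe set on the array (Xrcc4, Lig4, Xrcc5, Xrcc6, Prkdc, Nhej1, Lig3, Xrcc1 and Parp1). Together they had 18 probe sets, of 45037 tested for 17097 genes in all. Polq, the polymerase of alternative end joining, had no probe set under its symbol and is not analysed here. Members were taken by gene symbol from the annotation of the array platform. The set was built round Xrcc4, which was chosen by its higher log2 values in cKO than in WT on these same arrays, so its values are given as a description, with no p, and its place among the calls of the fit follows from that choice.

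The study compared 4 replicates from G9a cKO animals with 4 from G9a WT animals, with 1 array for each replicate. Both groups were 15-week-old mice whose shaved back skin had been treated from 8 weeks of age, once a week for 6 weeks, with the mutagen DMBA (0.25 mg/ml) and the tumour promoter TPA (0.02 mg/ml), 200 µl each. The cells thus came from skin treated with carcinogens in cKO and WT alike, and no untreated group was part of the comparison. G9a, encoded by Ehmt2, is a histone H3 methyltransferase linked to gene silencing. The sources used here name no Cre driver, deleted exon, cell isolation method, sex or array batch. The group cKO is therefore known only by that label and by its Ehmt2 signal.

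Classical end joining is the main route by which mammalian cells repair double-strand breaks outside S phase. The Ku70-Ku80 ring (Xrcc6 and Xrcc5) slides onto each end and recruits the kinase DNA-PKcs (Prkdc), the scaffold Xrcc4 and its filament partner XLF (Nhej1) align the ends, and DNA ligase IV (Lig4), which Xrcc4 binds and stabilises, seals them. Alternative end joining uses short stretches of matching sequence bared by resection, and relies on PARP1, polymerase theta (Polq) and DNA ligase III (Lig3) with its partner XRCC1. Hair follicle bulge stem cells are known for strong end joining activity by the classical route.

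The knocked-out gene itself was lower in cKO by 1 of its 2 probe sets. Ehmt2 1460692_PM_at read 6.44, 5.54, 5.80 and 5.64 in cKO, against 9.29, 8.89, 8.93 and 9.15 in WT, so that signal in cKO was 10.8% of that in WT (log2 change -3.21, standard error 0.18, limma adjusted p = 6.23e-05). The other probe set, 1426888_PM_at, averaged 8.41 in cKO and 8.41 in WT, and it checks nothing if it lies outside the deleted part. Between arrays, Pearson correlations over all probe sets were 0.996 to 0.998 within cKO, 0.994 to 0.997 within WT and 0.994 to 0.997 between the groups. The lowest array median was 5.87 and the highest 5.95.

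Xrcc4 was higher in cKO by both of its probe sets, by 1.38-fold (1424601_PM_at) and 1.32-fold (1424602_PM_s_at). The threshold was an adjusted p under 0.05 by limma over all probe sets. Of the 2, 1424601_PM_at passed it, which follows from the choice of the gene, and 1424602_PM_s_at did not. None of the 16 probe sets of the other 8 genes passed the threshold, and their log2 changes lay between -0.14 and 0.17. The probe set 1424601_PM_at of Xrcc4 read 7.13, 7.30, 7.25 and 7.21 (log2 expression) in cKO replicates 1 to 4, against 6.65, 6.83, 6.65 and 6.92 in WT replicates 1 to 4. Every cKO value lay above every WT value, and the lowest cKO array was 0.21 above the highest WT array, which was replicate 4. The means were 7.22 ± 0.07 in cKO and 6.76 ± 0.14 in WT (SD, n = 4 each), a log2 change of 0.46 (standard error 0.08, 95% interval 0.29 to 0.63).

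The second Xrcc4 probe set, 1424602_PM_s_at, read 5.20, 5.46, 5.26 and 5.17 in cKO, against 4.91, 4.71, 4.74 and 5.15 in WT. The groups again did not overlap, but the lowest cKO array was only 0.02 above WT replicate 4. This probe set was among the dimmest 40% of all probe sets by mean. Its means were 5.27 ± 0.13 in cKO and 4.88 ± 0.20 in WT (SD, n = 4 each), a log2 change of 0.40 (standard error 0.10, 95% interval 0.18 to 0.62). Its suffix marks probes that can match more than 1 transcript. Centred on their own means, the 2 Xrcc4 probe sets differed by a root mean square of 0.12 over the 8 arrays. A flat probe set would differ from the brighter one by 0.25. Among all probe sets, the dimmer one ranked only 251 in nearness to the brighter one by this measure.

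**Figure D1:**
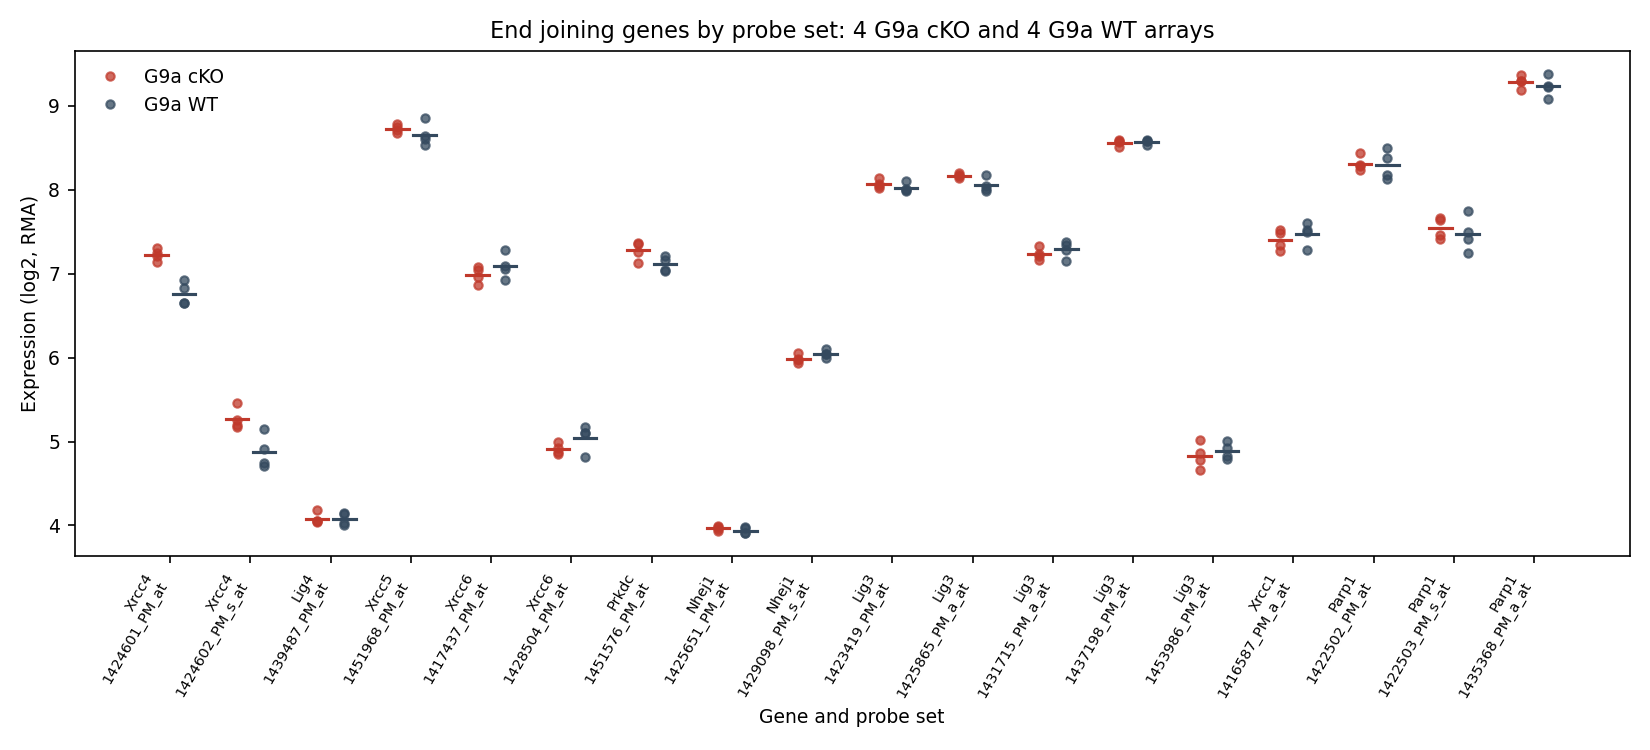
Log2 expression (RMA) of the 18 probe sets of 9 end joining genes, with 1 point per array, G9a cKO at the left and G9a WT at the right of each pair, and a bar at the mean of 4 arrays. The points separate by genotype only for the 2 Xrcc4 probe sets, at 7.13 to 7.30 in cKO against 6.65 to 6.92 in WT for the brighter one.

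Over all probe sets, 536 were higher in cKO (1.19%) and 266 were lower (0.591%) at a limma adjusted p under 0.05. Of the 18 end joining probe sets, 1 was among those higher, Xrcc4 1424601_PM_at, and 0 were among those lower. That single call is the one the set was chosen for, and nothing is read from the share. All cKO values lay above all WT values in 2 of the 18, both of Xrcc4, and in 4.15% of all probe sets. That follows from the same choice, so nothing is read from this share either. The median log2 change over the 18 was 0.0204, against -0.0036 over all probe sets. The change of Xrcc4 lay outside the middle range of the array, where 5% of changes were under -0.20 and 5% above 0.18. Among the 536 probe sets called higher in cKO, 313 had a larger log2 change, and the median over the 536 was 0.50.

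Leaving out single arrays kept the Xrcc4 change above 0 at both probe sets. The log2 change of 1424601_PM_at lay between 0.42 and 0.51 when any 1 array was left out. It was called in 7 of these 8 fits. It was 0.43 without cKO replicate 2, the cKO array with the highest value, where it was not called. The change of the dimmer probe set lay between 0.33 and 0.49, the highest without WT replicate 4. That was the only 1 of the 8 fits in which the dimmer probe set was called. With the array mean of a list of immediate early genes as a covariate, the change was 0.36 for the brighter and 0.23 for the dimmer probe set. Without this covariate the changes were 0.46 and 0.40.

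The sequence round the start of Xrcc4 is shown because the gene starts head to head with another gene, Tmem167, whose readings are given below. In GRCm38.p6 Xrcc4 lies on chromosome 13 from 89848914 to 90089608 on the minus strand, and Tmem167 lies from 90089667 to 90114921 on the plus strand, with 58 bases between them. The RefSeq windows run 5′ to 3′ on each gene's own strand, from 250 bases before to 50 bases after its start. Xrcc4 takes chr13:90089559-90089858 and Tmem167 takes chr13:90089417-90089716. Capitals mark the 158 bases that both windows share, read from opposite strands.
Xrcc4: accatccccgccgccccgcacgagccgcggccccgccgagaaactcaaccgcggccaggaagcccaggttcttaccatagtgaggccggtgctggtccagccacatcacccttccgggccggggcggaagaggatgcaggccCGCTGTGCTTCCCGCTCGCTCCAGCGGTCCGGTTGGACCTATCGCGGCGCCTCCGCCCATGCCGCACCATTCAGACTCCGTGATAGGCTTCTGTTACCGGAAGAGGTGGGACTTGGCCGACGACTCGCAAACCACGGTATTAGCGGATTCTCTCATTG
Tmem167: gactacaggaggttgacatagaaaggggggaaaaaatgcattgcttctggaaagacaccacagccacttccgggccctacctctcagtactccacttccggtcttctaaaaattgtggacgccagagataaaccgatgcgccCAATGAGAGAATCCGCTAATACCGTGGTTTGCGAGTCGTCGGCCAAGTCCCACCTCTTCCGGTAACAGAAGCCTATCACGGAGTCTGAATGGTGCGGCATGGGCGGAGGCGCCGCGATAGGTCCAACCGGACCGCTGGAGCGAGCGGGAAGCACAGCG

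The Xrcc4 window held 31 CpG dinucleotides, more than 89.4% of 32851 promoter windows of the same length, whose median was 7. Its GC content was 65.7%, against a median of 52.7%. The shared stretch held 17 of these CpG. Motifs, chosen after the sequences had been read, were searched on both strands. The GC box GGGCGG (in 35.7% of all windows), the ETS core CCGGAAG (8.9%) and the E2F core GCGGGAA (4.6%) each occurred in the shared stretch, and the E box CACGTG (7.2%) did not occur in either window. The CCAAT box (37.4%) occurred in the Tmem167 window only, across the edge of the shared stretch. Of the 10 listed genes, 9 had a promoter window in the table, all but Prkdc. Those of Lig4 (29 and 30 CpG in 2 entries) and Xrcc6 (30) were about as rich in CpG as that of Xrcc4, and those of Xrcc1 (7), Xrcc5 (9) and Nhej1 (10) had fewer. A match of letters does not show that a factor binds there.

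Tmem167, which encodes a small membrane protein of the secretory pathway, read slightly higher in cKO by each of its 6 probe sets, with log2 changes from 0.099 to 0.19 (median 0.16), and none passed the limma threshold (lowest adjusted p = 0.196). Its probe set 1423209_PM_at read 5.79, 5.86, 5.74 and 5.71 in cKO, against 5.54, 5.57, 5.50 and 5.71 in WT. The groups touched at cKO replicate 4 and WT replicate 4 without overlapping, and the other 5 probe sets overlapped. The 6 probe sets read the same gene on the same arrays and are not independent. The difference between Xrcc4 and Tmem167 in response was not tested.

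The other measured neighbours, the nearest on each side, gave no call. Gm4117, a predicted gene, changed by -0.005 in its only probe set, which was dim. Vcan, which encodes the matrix proteoglycan versican, changed by -0.038 to 0.037 over 5 probe sets, of which 4 were dim. Hapln1, a hyaluronan link protein gene, changed by -0.051 and -0.024 over 2 dim probe sets. Beyond Tmem167, the ribosomal protein gene Rps23 changed by -0.023. Atg10, an autophagy gene that begins 845739 bases from Xrcc4, read 8.46, 8.64, 8.56 and 8.33 in cKO, against 8.38, 8.12, 8.05 and 8.28 in WT. These values overlapped, and the log2 change of 0.29 (95% interval 0.093 to 0.49) did not pass (limma adjusted p = 0.169).

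**Figure D2:**
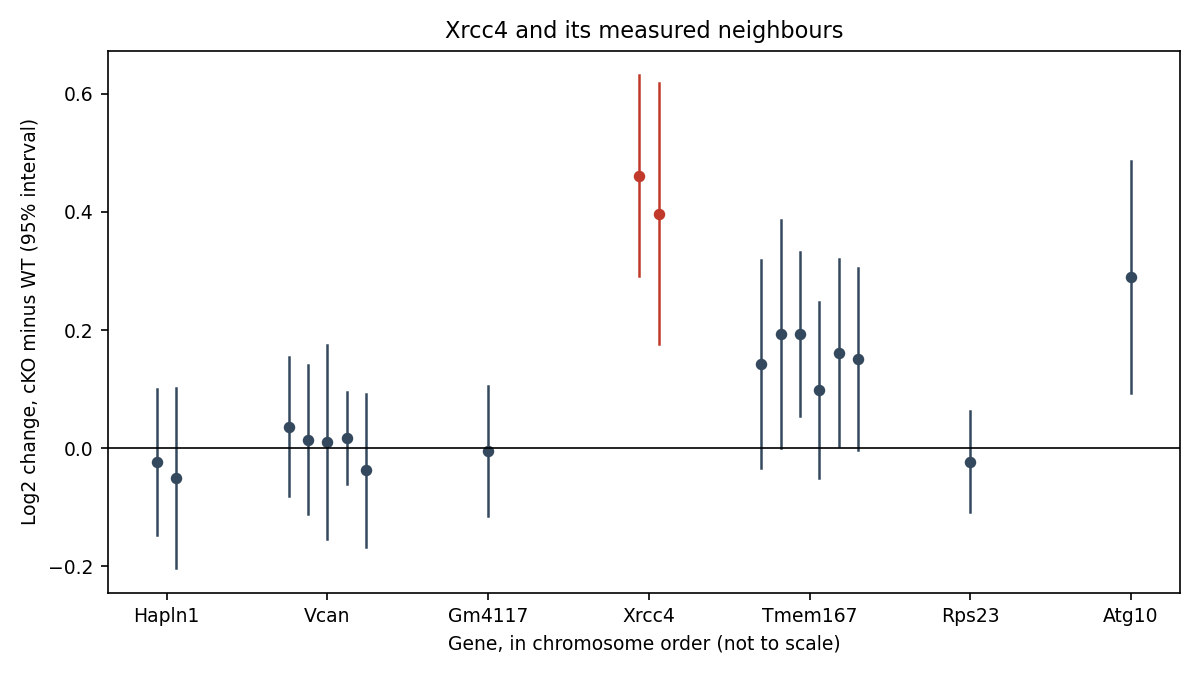
Log2 change (G9a cKO minus G9a WT, limma, 4 arrays each) of every probe set of Xrcc4 and of its 3 measured neighbours on each side, in chromosome order and not to scale, with bars for the 95% interval. The 2 Xrcc4 probe sets are at 0.46 and 0.40, the 6 Tmem167 probe sets between 0.099 and 0.19, and Atg10 at 0.29.

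Lig4, the ligase that Xrcc4 holds in its complex, showed no difference at the level the array could read. Its single probe set, 1439487_PM_at, read 4.18, 4.05, 4.04 and 4.05 in cKO, against 4.15, 4.14, 4.03 and 4.01 in WT. The groups overlapped throughout. The log2 change was 0.0018, with a 95% interval of -0.10 to 0.11 (limma adjusted p = 0.994). The probe set was dim on every array, so a change in a transcript near background may not have been readable.

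Nhej1, the gene of XLF, gave 1 dim and 1 brighter probe set. The brighter one, 1429098_PM_s_at, read 6.05, 5.94, 5.99 and 5.97 in cKO, against 6.04, 6.10, 6.04 and 6.00 in WT. Its values overlapped, with a log2 change of -0.058 and a 95% interval of -0.18 to 0.063 (limma adjusted p = 0.758). The dim one, 1425651_PM_at, ranged from 3.94 to 3.99 in cKO and from 3.91 to 3.98 in WT, a change of 0.026 (limma adjusted p = 0.843).

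The Ku genes did not pass in either direction, and their probe sets pointed different ways. Xrcc5, the Ku80 gene, read 8.78, 8.67, 8.71 and 8.75 in cKO, against 8.53, 8.61, 8.64 and 8.86 in WT. WT replicate 4 was above all cKO arrays and the other 3 WT arrays were below them. The log2 change was 0.071 (95% interval -0.088 to 0.23, limma adjusted p = 0.782).

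For Xrcc6, the Ku70 gene, the brighter probe set 1417437_PM_at read 7.09, 7.05, 6.87 and 6.96 in cKO, against 7.09, 6.92, 7.06 and 7.29 in WT. The groups overlapped, with WT replicate 4 again the highest array, and the log2 change was -0.098 (95% interval -0.28 to 0.089, limma adjusted p = 0.726). The dim probe set 1428504_PM_at read 4.999, 4.92, 4.87 and 4.85 in cKO, against 5.17, 5.10, 5.10 and 4.82 in WT. Here WT replicate 4 was the lowest array and the other WT arrays were above all cKO arrays, for a log2 change of -0.14 (95% interval -0.30 to 0.031, limma adjusted p = 0.508).

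Prkdc, the gene of the kinase DNA-PKcs, had the second largest positive change of the 9 genes. Its probe set 1451576_PM_at read 7.26, 7.37, 7.13 and 7.35 in cKO, against 7.04, 7.04, 7.16 and 7.21 in WT. cKO replicate 3 lay below WT replicates 3 and 4, and the other 3 cKO arrays were above all WT arrays. The means were 7.28 ± 0.11 in cKO and 7.11 ± 0.09 in WT (SD, n = 4 each). The log2 change of 0.17 (standard error 0.07, 95% interval 0.0064 to 0.33) was 1.12-fold and did not pass over all probe sets (limma adjusted p = 0.360). It was the only one of the 16 probe sets outside Xrcc4 with an unadjusted p under 0.05, which 13.0% of all probe sets had.

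**Figure D3:**
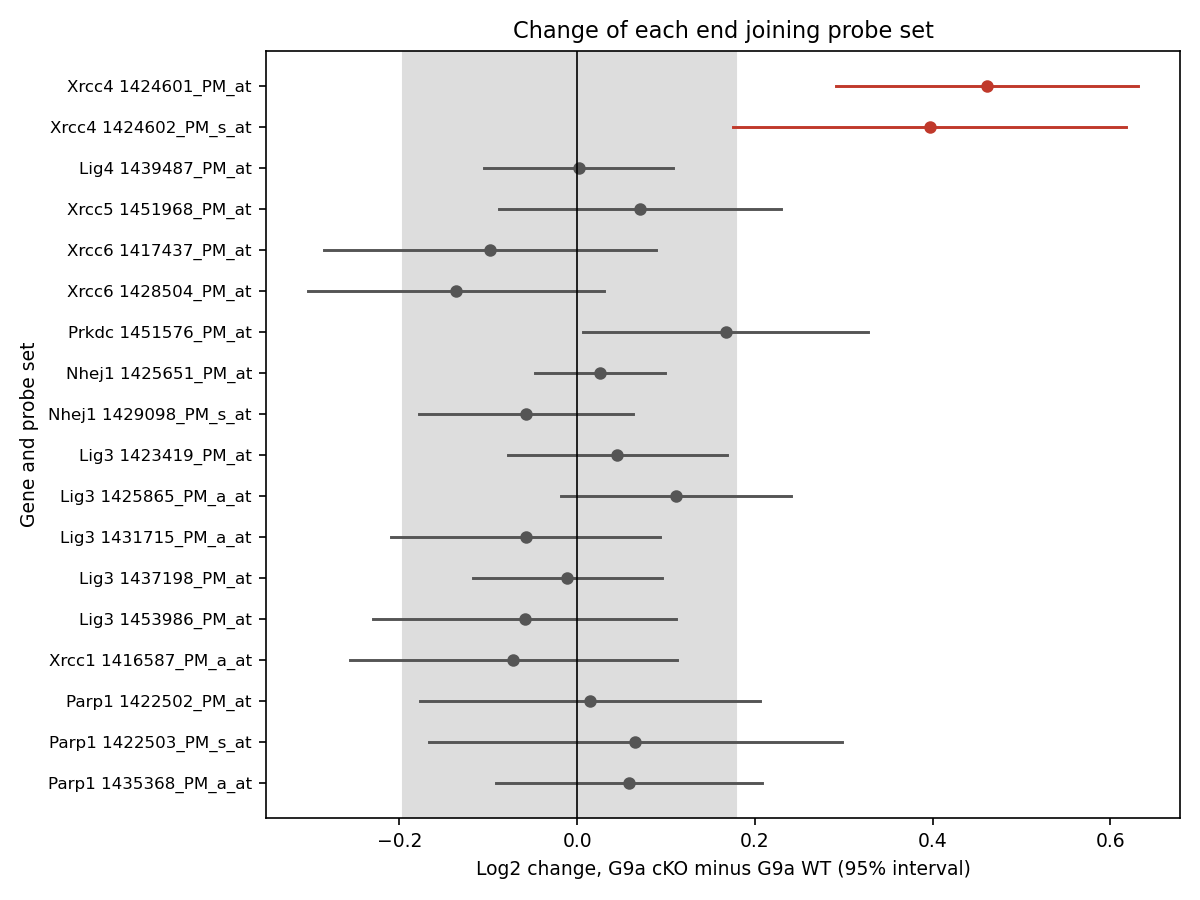
Log2 change (G9a cKO minus G9a WT, limma, 4 arrays each) of the 18 end joining probe sets, with bars for the 95% interval and a grey band for the middle range of all 45037 probe sets (-0.20 to 0.18, the 5% and 95% points). The 2 Xrcc4 probe sets are at 0.46 and 0.40, and the other 16 lie between -0.14 and 0.17, with intervals that end below 0.33.

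None of the genes of alternative end joining passed the threshold. Lig3, the gene of DNA ligase III, had 5 probe sets, with log2 changes from -0.059 to 0.11. The largest, 1425865_PM_a_at, read 8.20, 8.16, 8.18 and 8.14 in cKO, against 8.05, 7.99, 8.01 and 8.18 in WT. WT replicate 4 lay among the cKO arrays and the other 3 WT arrays lay below them. Its change of 0.11 had a 95% interval of -0.018 to 0.24 (limma adjusted p = 0.476).

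The other bright Lig3 probe sets changed by 0.045 (1423419_PM_at), -0.011 (1437198_PM_at) and -0.058 (1431715_PM_a_at), and the dim one, 1453986_PM_at, by -0.059, with limma adjusted p from 0.827 to 0.967 over these 4. The 5 probe sets thus pointed different ways. Xrcc1, the gene of the scaffold that binds DNA ligase III, read 7.52, 7.48, 7.35 and 7.28 in cKO, against 7.50, 7.29, 7.52 and 7.60 in WT. The groups overlapped, with a log2 change of -0.072 (95% interval -0.26 to 0.11, limma adjusted p = 0.820).

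Parp1, the gene of the enzyme that binds broken DNA and attaches ADP-ribose chains, had 3 probe sets. The brightest, 1435368_PM_a_at, read 9.29, 9.37, 9.19 and 9.30 in cKO, against 9.22, 9.09, 9.24 and 9.38 in WT, for a log2 change of 0.058 (95% interval -0.091 to 0.21, limma adjusted p = 0.821). WT replicate 2 was lowest and WT replicate 4 highest of all 8 arrays. The same 2 arrays were the lowest and highest in 1422502_PM_at (8.13 and 8.50) and in 1422503_PM_s_at (7.25 and 7.75). These probe sets changed by 0.015 and 0.066 (limma adjusted p = 0.976 and 0.890).

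Without Xrcc4, 9 of the 16 probe sets lay above 0 and 7 below, with a median log2 change of 0.0082, and 0 of the 16 had groups that did not overlap (7.35% of all probe sets). Limma called 0 of the 16, and 1 had an unadjusted p under 0.05 (13.0% of all probe sets). Their 95% intervals ran from -0.30 to 0.33, and so reached 1.26-fold upwards and 1.23-fold downwards. In simulated arrays of the same spread, with noise independent between probe sets, 76% of probe sets with a seeded log2 change of 0.5 were recovered. That change is larger than any these intervals reach, so the share does not tell how often smaller changes would be missed. In bulk samples such as these, fewer cells of a type and less RNA per cell cannot be told apart.

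The end joining genes varied between arrays of 1 genotype. WT replicate 4 was the highest WT array in 10 of the 18 probe sets (27.0% of all probe sets) and WT replicate 2 the lowest in 10 (23.6% of all). Among cKO arrays, replicate 1 was highest in 10 of 18 (40.9% of all) and replicate 3 in 0 of 18 (16.0% of all). A list of S phase and mitosis genes, with 22 of 23 measured, had mean log2 deviations of 0.36, 0.12, -0.28 and -0.24 in cKO replicates 1 to 4, against -0.16, -0.27, 0.053 and 0.42 in WT replicates 1 to 4. The arrays highest in each genotype for this list, cKO replicate 1 and WT replicate 4, were also most often highest for the end joining genes. With the mean of this list as a covariate, the log2 changes of the Xrcc4 probe sets were 0.46 and 0.40. The part of the list in the values of the end joining genes was not tested otherwise. The list did not differ by genotype (difference -0.023, two-sided exact permutation p = 0.857, Benjamini-Hochberg adjusted p = 0.914 over 8 lists).

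**Figure D4:**
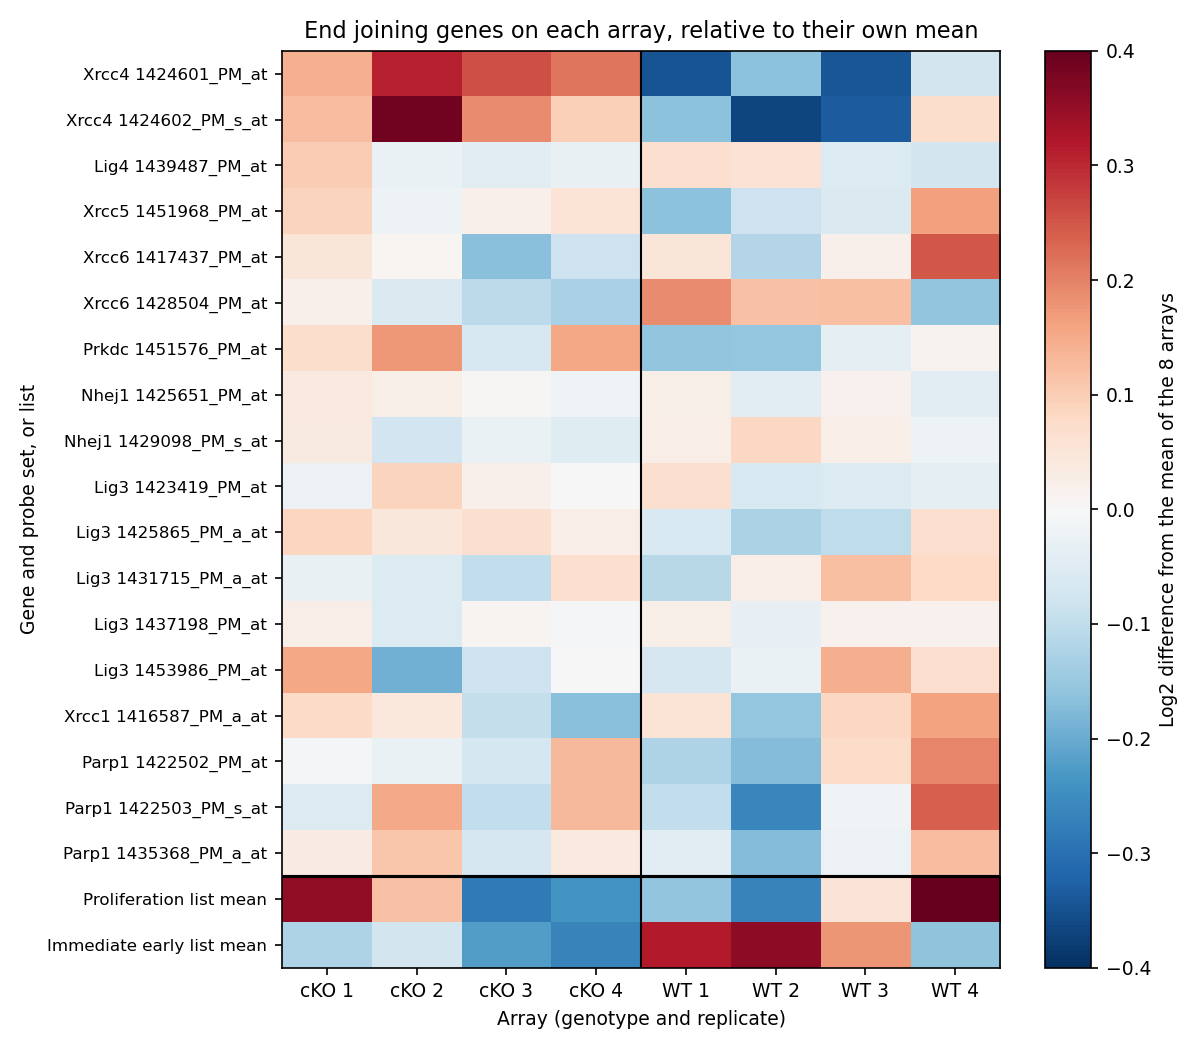
Log2 difference from each probe set's own mean of 8 arrays (colour, from -0.4 to 0.4) for the 18 end joining probe sets, with the array means of the proliferation and immediate early lists below the thick line. The 4 G9a cKO arrays are left of the thin line and the 4 G9a WT arrays right of it. The Xrcc4 rows are red in all 4 cKO arrays, and for the brighter probe set blue in all 4 WT arrays, while WT replicate 4 (0.42 in the proliferation list) is red in most rows.

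Lists of other genes differed in level between the groups without passing a test adjusted over lists. A single list could not pass that test, since the smallest p, in 1 list alone, adjusts to 0.229 over 8 lists. Immediate early genes, 19 of 20 measured, had mean deviations of -0.12, -0.074, -0.22 and -0.27 in cKO, against 0.32, 0.36, 0.18 and -0.16 in WT. WT replicate 4, the WT array with the highest Xrcc4 values, was at the level of the cKO arrays. The difference was -0.34 (two-sided exact permutation p = 0.0857, adjusted p = 0.343 over 8 lists, where 0.0286 is the smallest p that 4 against 4 arrays allow). Fibroblast markers, 6 of 6 measured, ran from -0.12 to 0.0064 in cKO and from 0.043 to 0.11 in WT, a difference of -0.13 (two-sided exact permutation p = 0.0286, adjusted p = 0.229). Col1a2, Col3a1, Lum and Pdgfra, 4 of these 6, were dim. The part of either list in the Xrcc4 difference was not tested. The defining markers of macrophages were dim in 6 of 7 genes, those of lymphocytes in 4 of 7 and those of endothelium in 3 of 4. Melanocyte markers, with 1 of 4 dim, ran from -0.12 to 0.096 in cKO and from -0.088 to 0.24 in WT, where replicate 4 was highest (difference -0.11, two-sided exact permutation p = 0.171, adjusted p = 0.457). All 11 genes of the bulge and basal keratinocyte list, which includes Krt15, Cd34 and Lgr5, were measured and none was dim. Limma called 0 of its 21 probe sets higher and 1 lower in cKO, against 1.19% and 0.591% of all probe sets. The immediate early list had 0 of 26 called higher and 1 lower, and the fibroblast list 0 of 7 and 1.

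The genes whose pattern over arrays was most like that of Xrcc4 were found by likeness alone, so their changes are given without a test. By the smallest root mean square difference of centred values over the 8 arrays, the 5 nearest named genes to 1424601_PM_at were Bnc1 (0.057), Arhgap4 (0.059), Arl15 (0.0685), Krt71 (0.070) and Atp8a2 (0.070). Bnc1, a zinc finger gene of basal keratinocytes, read 9.34, 9.40, 9.36 and 9.38 in cKO, against 8.89, 9.03, 8.89 and 9.02 in WT. Its low and high arrays within WT were those of Xrcc4, with replicates 1 and 3 below replicates 2 and 4. The log2 changes of the 5 ran from 0.37 (Krt71, an inner root sheath keratin) to 0.57 (Arl15, a small GTPase gene). The second Xrcc4 probe set ranked 251 of all probe sets by this measure.

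Of 40 further genes of end joining and the break response, 33 were measured, with 60 probe sets. Limma called 0 higher and 0 lower, where 1.19% and 0.591% of all probe sets were called, and 4 had an unadjusted p under 0.05, against 13.0% of all probe sets. Of the 60, 36 lay above 0 and 24 below, and the median log2 change was 0.0058. The groups did not overlap in 3 of the 60, against 7.35% of all probe sets.

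Genes of end processing in classical joining had 13 probe sets for 10 of 13 genes, with a median log2 change of 0.030. Wrn, the gene of a helicase and exonuclease that binds Ku, had 3 probe sets, of which 1425982_PM_a_at read 7.35, 7.32, 7.32 and 7.37 in cKO, against 7.17, 7.22, 7.12 and 7.23 in WT. The groups did not overlap, and the change of 0.15 (95% interval 0.034 to 0.27) did not pass over all probe sets (limma adjusted p = 0.238). The other Wrn probe sets, 1425074_PM_at and 1450163_PM_a_at, changed by 0.0052 and 0.0022. Aptx, which removes stalled AMP from ends, and Poll, a gap-filling polymerase, changed by 0.096 and 0.082 (limma adjusted p = 0.703 and 0.728). Dclre1c (Artemis) and Cyren are among those not analysed here.

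Genes of resection and alternative joining had 27 probe sets for 13 of 14 genes, with a median of 0.0042. The lowest p belonged to Parp3, which encodes a PARP enzyme that acts with Ku in classical joining. Its probe set 1451969_PM_s_at, with the same suffix as the second Xrcc4 probe set, read 5.24, 5.15, 5.18 and 5.15 in cKO. It read 5.43, 5.70, 5.58 and 5.31 in WT. The cKO mean of 5.18 was under the dim limit of 5.23, and the WT mean was 5.50. All cKO values were below all WT values, with WT replicate 4 nearest to them. The log2 change of -0.32 (95% interval -0.50 to -0.15) did not pass (limma adjusted p = 0.0849). It was called when WT replicate 4 was left out, where the number called lower over all probe sets rose from 266 to 829. The second Parp3 probe set, 1426210_PM_x_at, whose suffix marks probes that can bind other transcripts, ranged from 7.11 to 7.19 in cKO and from 7.24 to 7.46 in WT. Its change was -0.19 (limma adjusted p = 0.251), and that of the third, 1445888_PM_x_at, was -0.068 (limma adjusted p = 0.820). Rad50, the gene of the break-tethering subunit of the MRN complex, ranged in 1422630_PM_at from 7.71 to 7.81 in cKO and from 7.46 to 7.76 in WT, a change of 0.16 (limma adjusted p = 0.382). Its other probe set, 1425939_PM_at, changed by 0.032. Rbbp8 (CtIP) is not analysed here.

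Genes of break signalling and pathway choice had 20 probe sets for 10 of 13 genes, with a median of 0.0064. Shld1, the gene of a shieldin subunit that limits resection, ranged from 7.19 to 7.38 in cKO and from 7.00 to 7.25 in WT, a change of 0.16 (limma adjusted p = 0.388). Trp53bp1, whose product favours end joining over resection, ranged in 1435609_PM_at from 7.55 to 7.83 in cKO and from 7.27 to 7.75 in WT, a change of 0.19 (limma adjusted p = 0.507). Its other probe sets, 1426956_PM_a_at and 1426957_PM_at, changed by 0.0062 and 0.0002. H2ax, the gene of the histone variant phosphorylated at breaks and called H2afx in older annotation, ranged from 7.65 to 8.35 in cKO and from 7.94 to 8.58 in WT, a change of -0.27 (limma adjusted p = 0.578). Its highest arrays were cKO replicate 1 and WT replicate 4, as in the S phase and mitosis list. Rnf168, Shld2 and Shld3 are not analysed here.

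**Figure D5:**
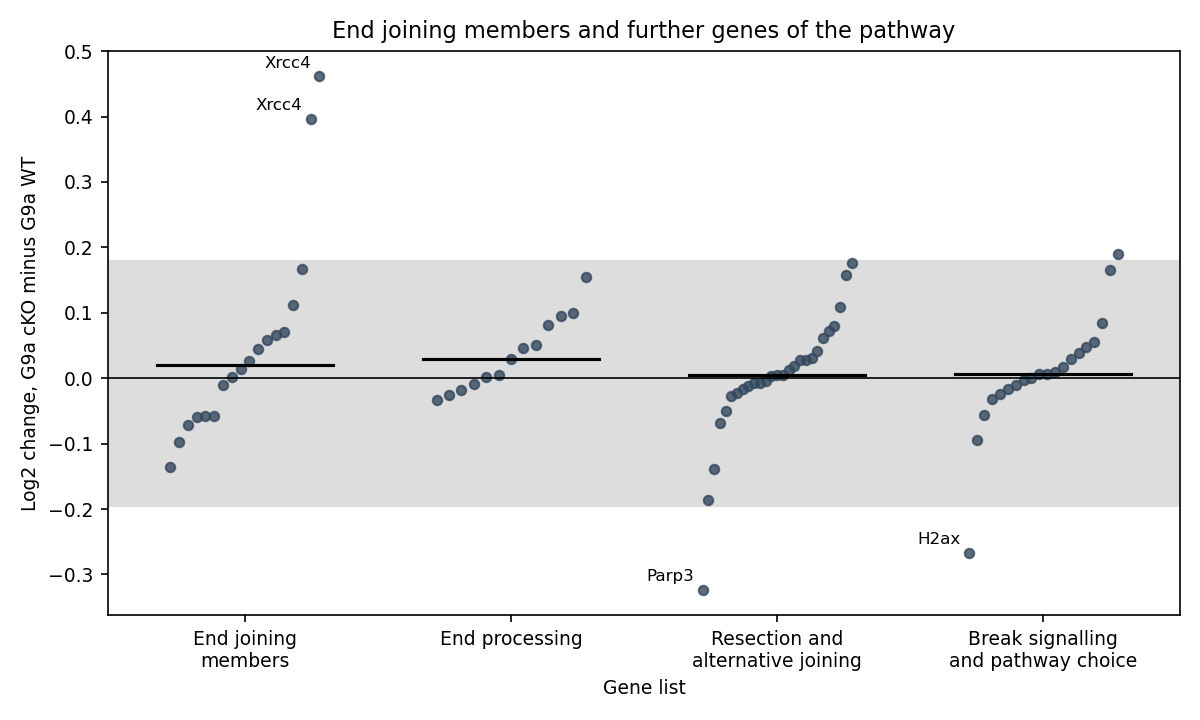
Log2 change (G9a cKO minus G9a WT) of every probe set of the end joining members and of 3 lists of further pathway genes, sorted within each list, with a bar at the median and a grey band for the 5% to 95% range of all probe sets (-0.20 to 0.18). The medians lie between 0.0042 and 0.030, and the points farthest from 0 are the 2 of Xrcc4 (0.46 and 0.40), 1 of Parp3 (-0.32) and H2ax (-0.27).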

How the data were processed

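Expression was measured on 8 Affymetrix mouse arrays, 4 of G9a cKO and 4 of G9a WT bulge cells. Per the labels' protocols, RNA was extracted with TRizol and 25 ng were amplified over 17 cycles. The deposited unit is log2 expression, which the authors computed by RMA according to the submitters' processing notes. RMA corrects background, normalizes between arrays and summarises probes, and is known to compress differences of dim probe sets. No version of it was named. Values ran from 3.09 to 13.12.

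Of 45141 probe sets 104 controls were left out. The platform table gave 1 symbol for 28898, several for 551 and none for 15692, and members were taken from those with 1 symbol. Symbols were matched to the RefSeq table of GRCm38.p6 for 28689.

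The groups were compared by a two-sided limma test (version 3.58.1, R 4.3.3; lmFit, then eBayes with an intensity trend), with Benjamini-Hochberg adjustment over all 45037 probe sets and a threshold of 0.05. Fold changes are 2 to the power of the log2 change. A probe set is called dim when its mean was in the lowest 40%, at 5.23 or under. A gene of a list is called dim when all of its probe sets were dim. Means of gene lists were compared by exact permutation of the 8 arrays. The number of arrays limits the precision. P-values weigh the difference between groups against the spread between replicates. The titles give the genotype of the animal and a replicate number, and do not say whether each replicate was a separate animal.

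The members and lists were chosen with earlier results of these data known. Named genes are all probe sets of the members and of Ehmt2, those called or the 3 with the lowest p of each list of further genes, the 5 genes nearest to Xrcc4 and 3 measured neighbours on each side. On simulated data over 45037 probe sets, 179 were called and 6 of these had not been changed. In all, 18 alternatives were run.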

Additional observations from a re-analysis of the deposited data

Results flagged for a closer look

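A single array stood far from the other 3 of its group in 2 of 40 groups of 4 arrays checked (20 probe sets in both genotypes), where chance gives about 1 in 20. Both differences were small. For Lig4 1439487_PM_at, cKO replicate 1 read 4.1832, and the other 3 cKO arrays read 4.04 to 4.05. The Lig4 log2 change took either sign when single arrays were left out. For Lig3 1437198_PM_at, WT replicate 2 read 8.5368, and the other 3 WT arrays read 8.58 to 8.59.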

How the results depend on the processing

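The numbers of probe sets higher and lower over the whole array (536 and 266) moved with the setting. They were 329 and 143 with 1 probe set per gene, 346 and 149 with the mean of a gene's probe sets, 828 and 629 with array weights, 308 and 146 with the replicate block, and 94 and 42 with the mean of immediate early genes as covariate. With the proliferation mean 438 were lower. Without 1 array they ran from 297 to 862 and from 122 to 829. The number of end joining probe sets higher in cKO (1) was 2 with array weights or the proliferation mean and 0 with the immediate early mean. It ran from 0 (without cKO replicate 2) to 2 (without WT replicate 4). Of the further pathway probe sets, 1 was lower with array weights, and 0 to 1 without 1 array. The cause of these moves was not tested. Xrcc4 1424601_PM_at kept its sign in the 17 alternatives that gave it a value (0.36 to 0.51), and 1424602_PM_s_at in the 15 that did (0.23 to 0.49).

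Small log2 changes turned sign. Lig4 was -0.0113 with array weights and -0.0322 to 0.0244 without 1 array. With the immediate early mean, Xrcc5 was -0.108, Xrcc6 1428504_PM_at 0.0735, and Parp1 -0.213 (1422502_PM_at), -0.1832 (1422503_PM_s_at) and -0.0619 (1435368_PM_a_at). Without 1 array, Parp1 ran from -0.0406 to 0.082 (1422502_PM_at) and from -0.0106 to 0.1566 (1422503_PM_s_at), and Lig3 1437198_PM_at from -0.0234 to 0.0061. The cause was not tested. Deviations of same-numbered arrays correlated at -0.319, -0.268, -0.544 and 0.07, which cannot tell whether such arrays were handled together. The labels give no pairing beyond the number. The replicate block changed no end joining call. Dim probe sets, 5 of the 18, limit what can be read of Lig4 and of the second probe sets.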
